A study of Rattus norvegicus with 24 samples.

Results

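ENSRNOG00000013391 and ENSRNOG00000025527 are 2 of the 32883 genes counted in the medial prefrontal cortex of rat offspring. They were chosen because, of the genes with a higher level in libraries titled oxytocin, they had the smallest p when the treatment difference was averaged over both titled sexes. The treatment difference therefore picked them and is given here as a description only. What the choice did not use is tested: the sex difference, the interaction of sex and treatment, and correlations among libraries of a group. The spread within groups went into the p that picked the 2 genes, so it is described only. That spread also sets the SE and intervals of the sex and interaction tests, and the choice can make these too small.

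The study used Sprague Dawley rats at postnatal day 45 whose birth had been induced with oxytocin or, as control, with saline. The 24 libraries of poly-A selected RNA from the cortex of both hemispheres form 4 groups by title: oxytocin male, saline male, oxytocin female and saline female, 6 libraries each, with separate animals per the design text. No dose, litter or dam is named in the sources used here. In 24 of 24 libraries the name of the deposited file carries the other sex and the other treatment than the title. Groups are named by title throughout. By the file names, titled oxytocin males are saline females, titled saline males are oxytocin females, titled oxytocin females are saline males, and titled saline females are oxytocin males. Both genes are then lower after oxytocin, every sex difference turns, and the interaction keeps its sign. The larger treatment difference, that of titled males, then belongs to females. The grouping of libraries is the same either way, so nothing measured within groups depends on which naming is right.

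Oxytocin is a peptide hormone made in the hypothalamus. It contracts the uterus during labour and acts in the brain through a receptor coupled to G proteins. The medial prefrontal cortex is an area of frontal cortex involved in decision making, fear control and social behaviour. The deposited tables give Ensembl IDs without names, and 0 of the 32883 IDs matched the reference tables used here, so the 2 genes stay unnamed. For the same reason no sequence is shown, their roles are not stated, and the tissue could not be checked against marker genes.

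Libraries held 15.9 to 24.3 M estimated reads. Depth was 17.4 ± 0.888 M reads in oxytocin female and 20.2 ± 2.18 M reads in saline female libraries (SD, n = 6 each), so the oxytocin side was shallower there. In oxytocin and saline males it was 19.5 ± 2.31 and 19.8 ± 2.42 M reads. ENSRNOG00000013391 received 4611 to 7432 reads per library and ENSRNOG00000025527 received 1453 to 2820, whole numbers in every library. Saline female 1 was lowest in how level varied with gene length. The slope of log2 level on log2 length was −0.091 in it and lay between −0.033 and 0.046 in the other 23 libraries. A Dixon rule for outliers, applied to 24 groups of 6 values with these slopes among them, flagged 0. The average and female treatment differences, the 2 closest partners of each gene and the length classes are given with and without saline female 1. For partners and length classes this was added after the data had been seen.

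Both genes are long, 6314 and 7399 bases, longer than 95.1% and 97.3% of the 11582 genes with a mean of at least 4 CPM (reads per 1 M reads of the library). By reads, ENSRNOG00000013391 ranked 516th and ENSRNOG00000025527 ranked 1757th of all genes. Per length they were less prominent. Their mean TPM (the deposited measure that corrects for length) was 84.1 and 24.2, ranks 1875 and 5636. The description "abundant" thus holds for their reads more than for their transcripts.

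ENSRNOG00000013391 stood at 319, 355 and 393 CPM (lowest, median and highest) in oxytocin male libraries and at 257, 294 and 317 CPM in saline male libraries. In CPM every oxytocin male library was above every saline male library. In TPM 35 of 36 pairs were ordered so, since saline male 5 (85.83 TPM) lay just above oxytocin male 5 (85.65 TPM). In females it stood at 307, 312 and 339 CPM in oxytocin and at 235, 272 and 309 CPM in saline libraries. The female groups overlapped: saline female 2, the highest at 309 CPM, exceeded 3 oxytocin libraries, and saline female 1, at 235 CPM, was the lowest of all 24. In TPM, as in CPM, 33 of 36 female pairs of an oxytocin and a saline library had the oxytocin library higher.

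ENSRNOG00000025527 stood at 114, 125 and 130 CPM in oxytocin male and at 93.2, 98.6 and 115 CPM in saline male libraries. In females it stood at 116, 126 and 137 CPM in oxytocin and at 96.4, 110 and 117 CPM in saline libraries. In CPM a single crossing occurred in each sex. Saline male 4 (114.6 CPM) lay above oxytocin male 5 (113.7 CPM), and saline female 2 (117.3 CPM) lay above oxytocin female 4 (116.3 CPM), so that 35 of 36 pairs of an oxytocin and a saline library were ordered alike in either sex. In TPM it was 34 of 36 pairs in males and 32 of 36 in females.

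**Figure D1:**
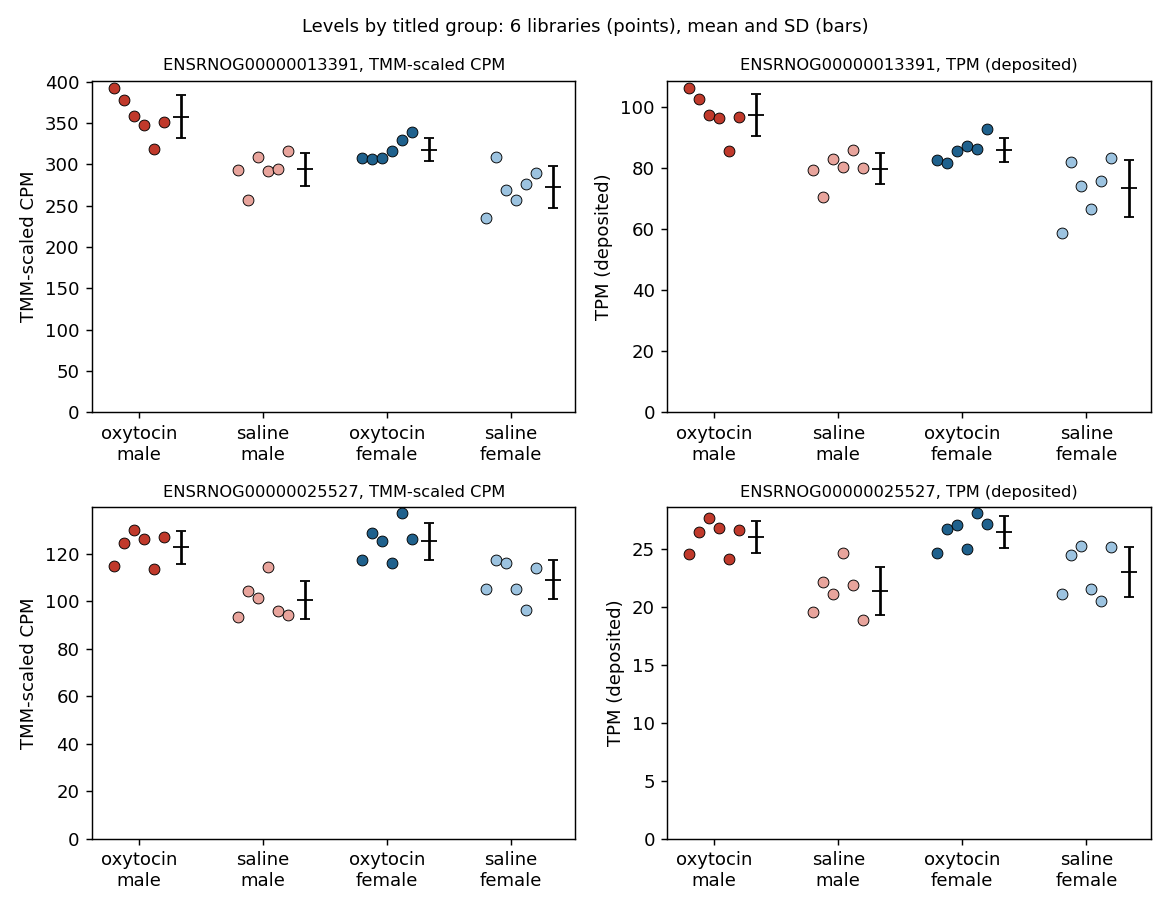
Level of each gene in each library by titled group, as TMM-scaled CPM (left) and as the deposited TPM (right); points are libraries and bars give mean and SD (n = 6). The group means are higher in oxytocin than in saline of the same sex for both genes; ENSRNOG00000025527 has 35 of 36 pairs ordered so in either sex in CPM, and 34 (males) and 32 (females) of 36 in TPM.

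Complete separation of the groups in this direction in CPM was seen for 0.784% of the 14930 tested genes in males and 0.355% in females, and for 0% in both sexes together. ENSRNOG00000013391 is among the first, and ENSRNOG00000025527 is in none of them; nothing is read from this, since the genes had been picked for the difference.

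Fitted with edgeR over all 24 libraries, ENSRNOG00000013391 was higher in titled oxytocin by 0.25 on the log2 scale (SE 0.04) and ENSRNOG00000025527 by 0.24 (SE 0.04), folds of 1.19 and 1.18. In males the log2 differences were 0.28 (SE 0.06) and 0.29 (SE 0.05), and in females 0.22 (SE 0.06) and 0.20 (SE 0.05). Both are far below the 2-fold limit named in the design text. They belong to the 36 genes called higher on average, 0.241% of those tested. In males alone both were among the 0.147% called higher (edgeR, adjusted p = 0.0397 and 0.0379), and in females their adjusted p was 0.183 and 0.192; with the replicate number as a block it was 0.0666 and 0.0478 in males. These values belong to the contrast that picked the genes. Without saline female 1 the average differences were 0.23 and 0.24, and the female differences were 0.18 and 0.19. In bulk tissue, a change in the number of cells of a type and a change in RNA per cell cannot be told apart. Litters or dams, which the labels do not give, cannot be told apart from treatment either.

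The limit of the choice fell at a gap in p. The ordering p-values in edgeR were 1.37e-06 for ENSRNOG00000013391 and 1.39e-06 for ENSRNOG00000025527, while the 3 genes next in order had 8.22e-06, 9.26e-06 and 9.63e-06. Those 3 were higher by 0.23, 0.16 and 0.20 on the log2 scale, at mean levels of 23.9, 127 and 76.4 CPM. The 2 genes kept the first 2 places in DESeq2 and when 21 of the 24 libraries were left out in turn. Without oxytocin female 1, ENSRNOG00000013391 came 4th, and without oxytocin female 2 or saline female 2, ENSRNOG00000025527 came 3rd. With the replicate number of the titles as a block, ENSRNOG00000013391 came 4th and ENSRNOG00000025527 came 1st. With the slope of level on gene length as a covariate, added after the data had been seen, they came 3rd and 2nd. These places refit the p that picked the genes on the same libraries, so they are a description only.

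The choice did not use the interaction, which asks whether the treatment difference depended on sex. The difference was larger in males by 0.06 for ENSRNOG00000013391 (SE 0.08, 95% interval −0.10 to 0.23, adjusted p = 0.897, edgeR) and by 0.09 for ENSRNOG00000025527 (SE 0.08, 95% interval −0.07 to 0.25, adjusted p = 0.837, edgeR). Neither was called, as was 0% of all genes in this contrast (0 of 14930, with 1089 genes at an unadjusted p under 0.05 and 2 called by DESeq2). The intervals leave room for a difference between the sexes about as large as the treatment difference itself.

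Between titled sexes, averaged over treatment, the 2 genes pointed opposite ways. ENSRNOG00000013391 was higher in males by 0.14 (SE 0.04, 95% interval 0.06 to 0.22, adjusted p = 0.176, edgeR) and ENSRNOG00000025527 lower by a log2 fold change of −0.07 (SE 0.04, 95% interval −0.15 to 0.01, adjusted p = 0.541, edgeR). Neither was among the 0.228% of genes called.

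**Figure D2:**
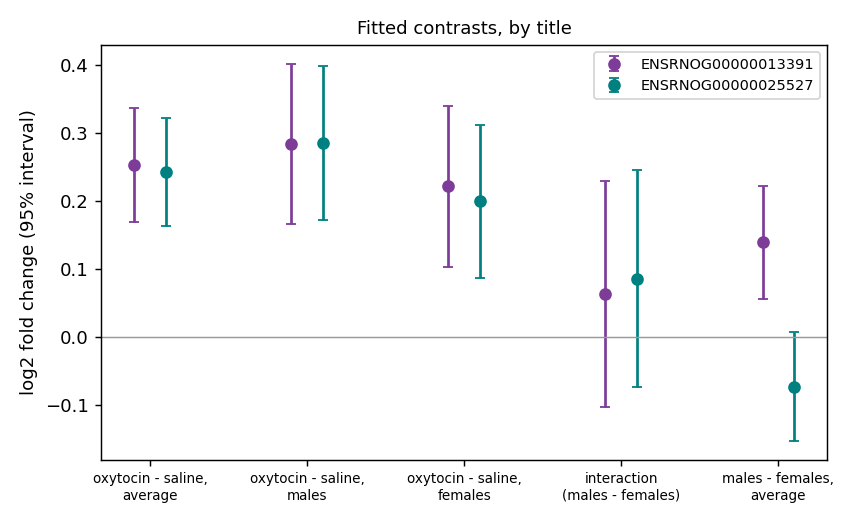
Fitted log2 fold changes with 95% intervals for both genes in the 5 contrasts, named by title. The treatment differences lie between 0.20 and 0.29 in either sex, the interaction intervals include 0, and the sex differences have opposite signs (0.14 and −0.07).

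The next question was whether 2 genes that shift alike with treatment also vary together between libraries of the same group. For this the 4 group means were removed from log2 CPM, which takes out treatment and sex. What remained had an SD of 0.105 for ENSRNOG00000013391 and 0.099 for ENSRNOG00000025527 (20 degrees of freedom). Neither gene was unusually steady: of genes with a read level within 1.41-fold, 77.4% of 482 and 67.2% of 1354 had a smaller SD. The choice by smallest p used this spread, so the comparison is a description.

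No clear relation of the 2 genes within groups was found, and a moderate r is not excluded. Pearson's r was 0.137 (p = 0.567) and Spearman's rho 0.089 (p = 0.706) over 24 libraries, by two-sided permutation tests within groups with 100000 draws. Adjusted over 3 relations these were 0.567 and 0.706. In 12 of 24 libraries both lay on the same side of their group means. Saline female 2 was high for both (0.19 and 0.11 above its group mean), and oxytocin male 5 was low for both (−0.16 and −0.11). Without the 2 libraries farthest from the median of ENSRNOG00000013391, saline female 1 and saline female 2, r was −0.012 (permutation p = 0.960). With the first principal component of the residuals removed it was 0.399 (permutation p = 0.0862). With the slope of level on gene length removed, added after the data had been seen, it was 0.311 (permutation p = 0.185).

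Within single groups r was 0.093 in oxytocin males, −0.373 in saline males, 0.395 in oxytocin females and 0.472 in saline females. None of these had an exact permutation p below 0.343 (n = 6 each). On deposited TPM, r over all libraries was 0.365 (permutation p = 0.153), but on TPM r was higher for many other genes too. Library totals were the other relations tested: r was −0.221 for ENSRNOG00000013391 and 0.260 for ENSRNOG00000025527, with rho −0.231 and 0.266 (permutation p = 0.363 and 0.272 for r, 0.309 and 0.240 for rho, adjusted 0.545 for r and 0.464 for rho in both). Without oxytocin male 5 and saline female 2 these r were −0.364 and 0.350.

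The place of the other gene among all partners depended on what was removed from the values. Of 11581 genes ranked by their within-group r, ENSRNOG00000025527 was number 4374 for ENSRNOG00000013391, and ENSRNOG00000013391 was number 3763 for ENSRNOG00000025527. On TPM these ranks were 4106 and 3136, and without saline female 1 they were 4686 and 4492. With the first principal component of the residuals removed they were 1012 and 1271, and with the slope of level on gene length removed, which was added after the data had been seen, 2078 and 2058. For comparison, the middle 90% of genes had an r between −0.493 and 0.554 with ENSRNOG00000013391 and between −0.429 and 0.472 with ENSRNOG00000025527. These r are on CPM over the same 24 libraries and are given without p. No such range is given for TPM, so r on TPM cannot be read against it.

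Leaving out saline female 1 kept 11 of the 20 highest partners of ENSRNOG00000013391 and 13 of the 20 of ENSRNOG00000025527. The genes most like ENSRNOG00000013391 were ENSRNOG00000016137 (r = 0.857, rho = 0.820) and ENSRNOG00000011937 (r = 0.849, rho = 0.797), at r = 0.837 and 0.804 without saline female 1. Their r with ENSRNOG00000025527 was 0.230 and 0.082, and 0.558 and 0.307 on TPM. ENSRNOG00000016137 had mean levels of 287 CPM in oxytocin male, 287 in saline male, 293 in oxytocin female and 283 in saline female libraries, and ENSRNOG00000011937 had 115, 107, 106 and 103 CPM. ENSRNOG00000016137 thus followed ENSRNOG00000013391 from library to library while its treatment difference was 0.03 (SE 0.03). That of ENSRNOG00000011937 was 0.07 (SE 0.04); neither was called (edgeR, adjusted p = 0.674 and 0.376). The most opposed genes were ENSRNOG00000019106 (r = −0.818) and ENSRNOG00000018237 (r = −0.799), at means of 77.7 and 50.1 CPM over all libraries. Those 2 are 405 and 769 bases long, and the 2 closest partners 2759 and 1478 bases. With the slope of level on gene length removed, added after the data had been seen, the opposed genes had r of −0.748 and −0.777. That of the 2 closest partners was then 0.817 and 0.790. On TPM the r of the opposed genes was −0.565 and −0.456, and that of the 2 closest partners was 0.885 and 0.884.

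The genes most like ENSRNOG00000025527 were ENSRNOG00000013961 (r = 0.817, rho = 0.770) and ENSRNOG00000011282 (r = 0.810, rho = 0.855). Their treatment differences were 0.03 (SE 0.03) and −0.01 (SE 0.03), not called (edgeR, adjusted p = 0.645 and 0.844), and their r with ENSRNOG00000013391 was 0.071 and 0.105, and 0.413 and 0.479 on TPM. Without saline female 1 their r with ENSRNOG00000025527 was 0.821 and 0.811. The most opposed were ENSRNOG00000017346 (r = −0.819) and ENSRNOG00000003262 (r = −0.804), at means of 4.88 and 95.7 CPM. On TPM their r was −0.664 and −0.457, and that of the 2 closest partners was 0.851 and 0.853.

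The 100 highest partners had r from 0.690 to 0.857 for ENSRNOG00000013391 and from 0.631 to 0.817 for ENSRNOG00000025527. An r over 0.7 was reached by 84 genes with ENSRNOG00000013391 and by 25 with ENSRNOG00000025527.

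**Figure D3:**
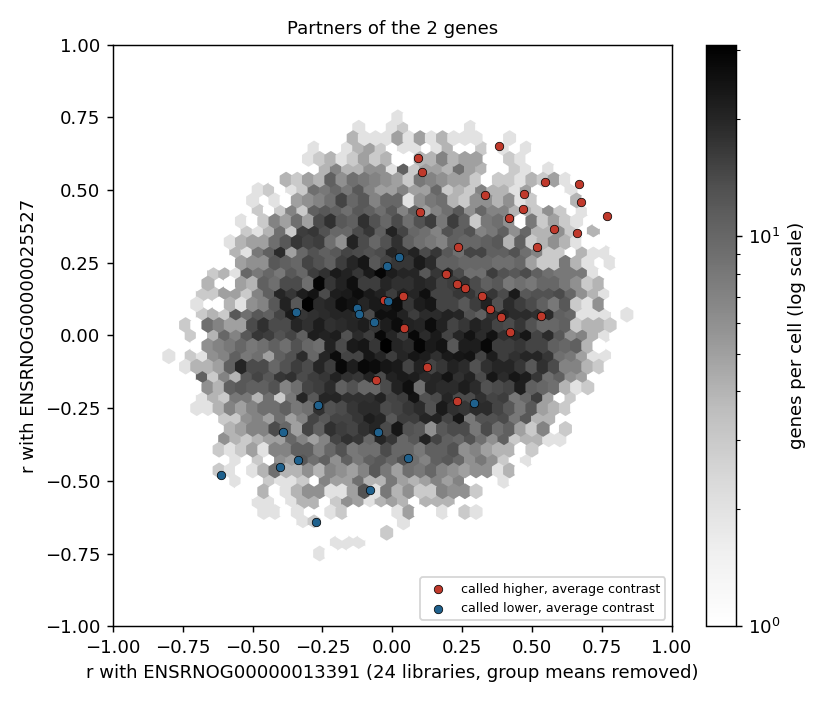
Within-group r of 11580 genes with ENSRNOG00000013391 (x) and with ENSRNOG00000025527 (y); grey cells count genes on a log scale, red and blue points are the 30 other genes called higher and the 17 called lower in the average treatment contrast. The cloud is round, and the red points lie mostly in the upper right, with a median r of 0.341 and 0.303.

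Treatment differences of the partners were small and mostly of the same sign as those of the 2 genes. Of the 100 highest partners of ENSRNOG00000013391, 96 had a positive average difference, with a median of 0.07 on the log2 scale, and 1 was called. For ENSRNOG00000025527 it was 83 of 100, with a median of 0.05 and 1 called. Picked without saline female 1, 88% and 80% of the 100 highest were positive. Of the 100 lowest partners, 11 and 21 were positive. Over all 11580 other genes 51.7% were positive, the median was 0.00, and 0.406% were called in either direction. Partners share the libraries of the 2 genes, so their group means are not independent of those of the 2 genes.

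The other genes called in the average contrast were then read from the same side. Of the 36 called higher, 30 others had at least 4 CPM. Of these, 28 had a positive r with ENSRNOG00000013391 (median 0.341) and 27 with ENSRNOG00000025527 (median 0.303), against 52.2% and 50.8% of all genes. An r over 0.5 was found for 8 of the 30 with ENSRNOG00000013391 (7.76% of all genes), for 5 with ENSRNOG00000025527 (3.96% of all genes), and for 2 with both. Of the 17 called lower, 3 and 7 had a positive r. The 3 genes next in the order of p had r of 0.469, 0.545 and 0.106 with ENSRNOG00000013391 and of 0.434, 0.527 and 0.564 with ENSRNOG00000025527. In all but the value of 0.106 these were above the r of 0.137 between the 2 genes. All genes of this paragraph were called in the contrast that picked the 2 genes, over the same libraries. That choice can itself favour r of the sign of the call, so these counts are a description.

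Partners were compared between the titled sexes, which share no library. The 100 genes of highest r with ENSRNOG00000013391 in the 12 male libraries had a median r of 0.832 there and of 0.338 in the 12 female libraries, where 75 of 100 were positive. Picked in females, the median was 0.352 in males, with 85 of 100 positive. For ENSRNOG00000025527 the medians in the other sex were 0.324 (picked in males, 83 positive) and 0.213 (picked in females, 72 positive). All genes had medians between 0.00 and 0.02. The sign of r with the picked genes was thus mostly kept in the other sex, at a smaller r. Their order was not compared, and the 100 genes are not independent of one another. The r of the 2 genes with each other was −0.176 in males and 0.436 in females.

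Each gene was also set against measures of the libraries. The first principal component of the within-group residuals of all other genes held 12.1% of their variance. ENSRNOG00000013391 went with it at r = −0.670 and rho = −0.645 (permutation p = 0.00260 and 0.00210, adjusted p = 0.0208 and 0.0168 over 8 relations). Without saline female 1 and saline female 6, at its 2 ends, r was −0.531 (permutation p = 0.0191). ENSRNOG00000025527 had the other sign, r = 0.227 and rho = 0.234 (permutation p = 0.371 and 0.319, adjusted p = 0.495 and 0.511), and r = 0.494 without those 2 libraries (permutation p = 0.0439).

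**Figure D4:**
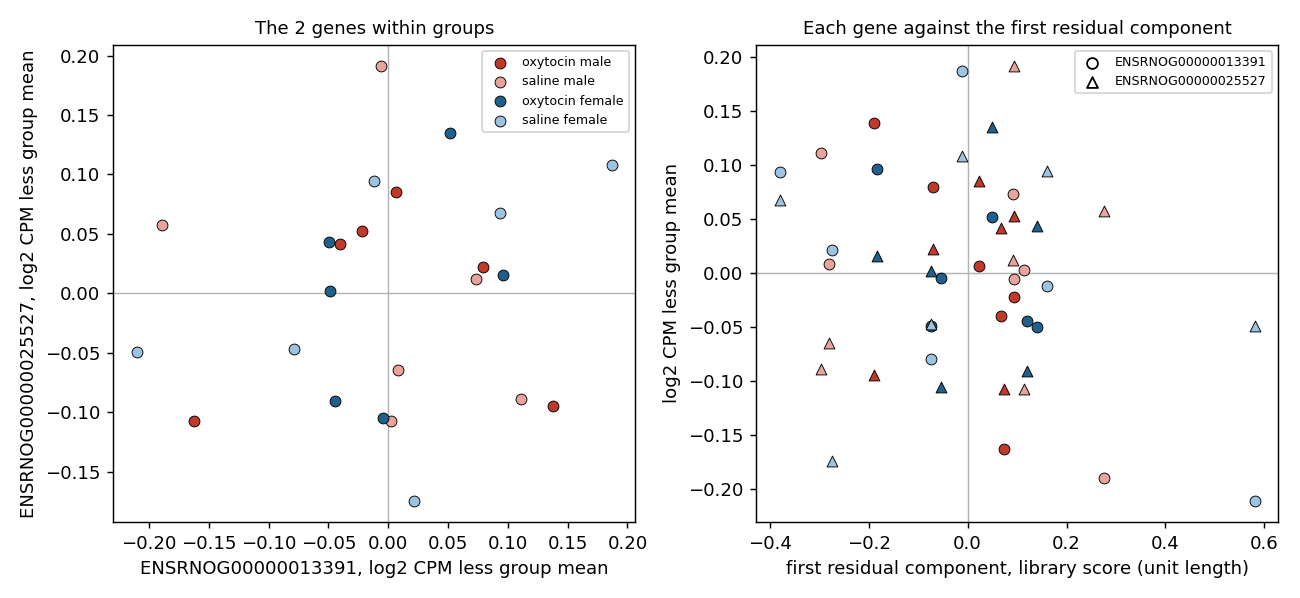
Left: log2 CPM less the group mean of ENSRNOG00000025527 against that of ENSRNOG00000013391, 1 point per library (r = 0.137). Right: both genes against the library score on the first residual component; circles (ENSRNOG00000013391) fall from left to right (r = −0.670), triangles (ENSRNOG00000025527) do not, and saline female 1 is the point at the far right.

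The r of the partners also went with their length. Of 5 length classes of 2316 genes, the shortest (median 1028 bases) had a median r of −0.145 with ENSRNOG00000013391 and 0.064 with ENSRNOG00000025527. In the longest (median 5056 bases) it was 0.229 and −0.086. Across genes, r went with length at Spearman rho 0.341 and −0.169, a description over genes that are not independent. Without saline female 1 these rho were 0.195 and −0.229; the median r went from −0.069 in the shortest to 0.116 in the longest class for ENSRNOG00000013391 and from 0.095 to −0.131 for ENSRNOG00000025527. That library thus held part of the trend of ENSRNOG00000013391, and the signs were the same without it. Both genes are themselves in the longest of these classes, yet the trend with length had opposite signs for them.

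Per library, the slope of level on gene length had an r of 0.506 with ENSRNOG00000013391 (rho 0.509, permutation p = 0.0337 and 0.0222, adjusted p = 0.135 and 0.0889). That value rests on saline female 1 and 6, without which r was 0.280 (permutation p = 0.221). The same 2 libraries, at −0.070 and 0.050 in slope less the group mean, were at the ends of the first component (0.580 and −0.380). The component, the slope and the length classes are therefore not separate observations. With ENSRNOG00000025527 it had r = −0.243 and rho = −0.394 (permutation p = 0.310 and 0.0795, adjusted p = 0.495 and 0.212), and r = −0.508 without those 2 (permutation p = 0.0220). By group the slope was 0.0098 ± 0.0229 in oxytocin male, 0.00077 ± 0.0157 in saline male, 0.0104 ± 0.0251 in oxytocin female and −0.0210 ± 0.0426 in saline female libraries (SD, n = 6 each). With this slope as a covariate, an alternative added after the data had been seen, the average treatment difference was 0.22 for ENSRNOG00000013391 and 0.26 for ENSRNOG00000025527. Genes of similar length (the shorter at least 0.8 times the longer) had median differences of 0.03 (930 genes) and 0.04 (599 genes).

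**Figure D5:**
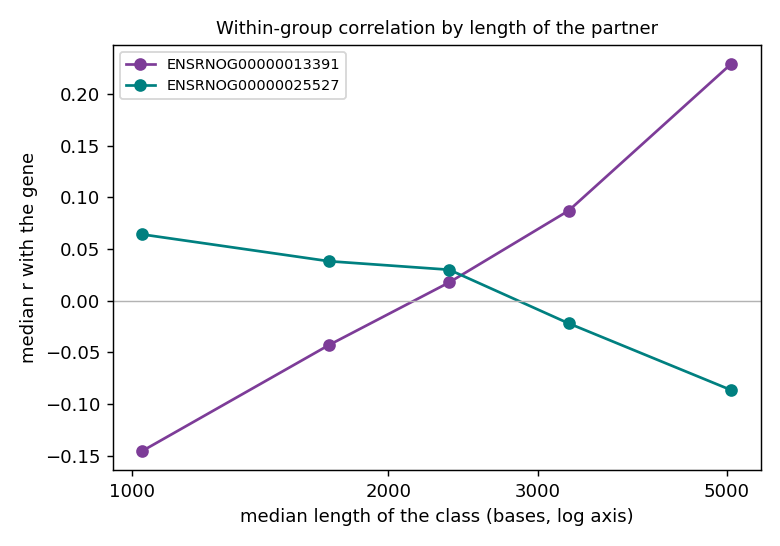
Median within-group r of partner genes with each of the 2 genes, by class of partner length (log axis, 5 classes of 2316 genes). The line rises from −0.145 to 0.229 for ENSRNOG00000013391 and falls from 0.064 to −0.086 for ENSRNOG00000025527.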

How the data were processed

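Reads were processed with bcl2fastq and DRAGEN on the Rnor_6.0 assembly, per the submitters' processing notes. Tool versions, annotation and strand setting: not given in the sources used here. The deposited tables hold, per the file headers, lengths, TPM and an estimated count of reads per gene. The estimated counts deposited by the authors were rounded; those of both genes were whole. TPM as deposited by the authors served for levels per length and, as log2(TPM + 0.5), as an alternative. Counts were fitted in edgeR 4.0.16 (R 4.3.3): filterByExpr (minimum count 10, 14930 genes left), TMM scaling (factors 0.971 to 1.03), 1 mean per titled group, robust quasi-likelihood, Benjamini-Hochberg adjustment over all tested genes, called at 0.05. SE is the log2 fold change over the square root of F. DESeq2 1.42.0 was an alternative. The fit was tested on simulated data with folds all larger than those of the 2 genes, so that test does not cover differences of this size. Within-group values are log2 CPM (TMM, prior count 2) less the group mean, over genes with at least 4 CPM on average. Partners printed are the 2 highest and 2 lowest per gene by r. The 2 genes, tests and lists were chosen with earlier results of these data known. Lists of marker and pathway genes could not be used, since no ID could be named. Intervals cover the spread between these libraries.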

Additional observations from a re-analysis of the deposited data

How the results depend on the processing

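For both genes the average and within-sex treatment differences (a description), the interaction and the sex difference kept their sign, and the last 2 stayed uncalled, under RLE factors, both filters, DESeq2, the replicate block, effective length offsets, the length slope as covariate and each library left out. The average ranged from 0.23 to 0.27 and from 0.23 to 0.26 over left-out libraries. The r between the genes was −0.012 without saline female 1 and 2 and −0.373 within saline males, 0.024 to 0.231 over left-out libraries, 0.072 with the replicate block and 0.399 with the first component removed; the cause was not tested. With that component removed the genes ranked 1012 and 1271 among each other's partners, and 3 and 12 of the 20 highest partners were kept. Counts of called genes moved more. On average it was 54, 356 in DESeq2 and 148 with the length slope, 9 to 334 over left-out libraries (without saline male 2 and saline female 2). In males it was 24, then 160, 9 with the replicate block, 96 with the slope, and 0 to 106. In females it was 1, then 42, 4 with the slope, and 1 to 6. The interaction went from 0 to 2 in DESeq2 and 1 with the block. Between sexes it was 34, then 102, and 29 to 60. Replicate numbers are shared between groups but no label pairs them. Of 36 same-numbered pairs, 8 correlated above 0.1 (median r 0.037), and 4 of 24 libraries matched best with their own number. No background from differently numbered pairs is given for either count, so they do not tell whether libraries were paired. The block changed no call of the 2 genes on average, in females, in the interaction or between sexes, but ended the male edgeR call of ENSRNOG00000013391 (adjusted p = 0.0666, against 0.0397). The adjusted p in males also passed 0.05 in 11 and 10 of 24 fits with a library left out (up to 0.106 and 0.0972): each male library except oxytocin male 5 and saline male 4 for both genes, and oxytocin female 3 for ENSRNOG00000013391.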

Other observations

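The ratio of the 2 genes differed between titled sexes. In TPM, ENSRNOG00000013391 was 3.76 ± 0.362 times ENSRNOG00000025527 in males (SD, n = 12; range 3.18 to 4.33) and 3.23 ± 0.252 times in females (SD, n = 12; range 2.79 to 3.68), with overlapping libraries. The log2 ratio was higher in males by 0.22, two-sided permutation p = 0.00073 with sex labels redrawn within treatment. The ratio needs no scaling between libraries, and on log2 CPM it was 0.21 (permutation p = 0.00085). It stayed between 0.20 and 0.24 when any 1 library was left out, with a permutation p of at most 0.00178. By group it was 3.75 ± 0.310 in oxytocin and 3.76 ± 0.438 in saline males, and 3.26 ± 0.185 in oxytocin and 3.19 ± 0.322 in saline females (SD, n = 6 each). The ratio was formed after the opposite sex differences of the 2 genes had been seen, so this is 1 test picked by its values. By the file names the higher ratio belongs to females.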
